A study of Mus musculus with 6 samples.

Results

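Genes of the DNA replication and chromosome segregation machinery were followed in single nuclei of mouse small intestinal organoids. The members were chosen by symbol, as the Mcm, Orc, Gins, Rfc, Prim and numbered Pola, Pold and Pole genes of replication and the lettered Cenp, Ncap and Smc genes of segregation. The rule covers 67 annotated genes, of which 52 were among the 31319 genes of the deposited matrices. The 9 Mcm and 6 Smc genes of the rule were not analysed here. Of the 52 members, 26 belonged to replication (6 Orc, 4 Gins, 5 Rfc, 2 Prim and 9 Pol) and 26 to segregation (20 Cenp and 6 Ncap).

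The organoids were grown from jejunum of C57BL/6 mice aged 8 to 12 weeks. They were kept in medium conditioned by mouse embryonic fibroblasts (MEFs) that were quiescent (QCM) or senescent (SCM), with 3 samples per medium. The study compared the media to see how factors secreted by senescent cells act on the intestinal epithelium. Which agent made the MEFs of these samples senescent is not given in the labels. The QCM samples also carry conditioned medium, so no group here is free of fibroblast products. The readout was single-nucleus RNA-seq, in which transcripts of isolated nuclei are counted by unique molecular identifiers (UMIs), in 38154 nuclei of 15 deposited clusters.

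Replication starts where the origin recognition complex (the Orc proteins) marks DNA and the helicase with its GINS subunits (Gins) unwinds it. Polymerase alpha (Pola1, Pola2) with primase (Prim1, Prim2) then lays primers, replication factor C (Rfc) loads the sliding clamp, and polymerases delta (Pold) and epsilon (Pole) extend the strands. In mitosis many of the centromere proteins (Cenp) build the kinetochore that holds microtubules, and condensin (Ncap) compacts the chromosomes. The rule takes Cenp genes by symbol, whatever their role. In the intestine such cycling cells lie in the crypts, while enterocytes of the villi no longer divide.

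The samples differed in size and depth. QCM held 3791, 7930 and 10144 nuclei in replicates 1 to 3, and SCM 430, 5026 and 10833. Total UMIs lay between 4071926 (SCM replicate 1) and 41035733 (QCM replicate 1), and median UMIs per nucleus between 1578 and 8260. Both replicate 1 samples shared 175 cell barcodes, which was 40.7% of the nuclei of SCM replicate 1, whereas any other pair shared 0 to 36. Whether reads passed between these libraries was not tested. Ribosomal protein genes took 4.96% to 14.2% of UMIs in QCM and 2.64% to 7.30% in SCM. Epithelial markers summed to 2085 to 2997 UMIs per 1000000 (CPM) per sample, against at most 2.71 for fibroblast, 2.91 for immune and 4.97 for endothelial markers. Nothing in the labels says that the samples came from separate animals, so p-values refer to these samples and not to animals.

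Every member was detected, with 1201 UMIs (Cenpm) to 38541 UMIs (Cenpv) in all and a UMI in 2.92% to 46.8% of nuclei. For 18 members another coding gene overlaps the annotated span. Reads of such pairs could be split between the genes.

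The start regions of the members differed in the words they hold. The E2F element, bound by E2F factors of the G1/S transition, was searched as TTTCCCGC, TTTCGCGC, TTTGCCGC and TTTGGCGC on both strands. The cell cycle homology region (CHR), bound by the MuvB complex at G2/M genes, was searched as TTTGAA and TTCGAA, and the CCAAT box of NF-Y as CCAAT. Windows of 300 bases around the RefSeq start (250 before, 50 after, build GRCm38.p6) were found for 47 of 52 members. That start lay 52491 bases from the annotated gene start for Pole4, 3579 for Cenpj and 1270 for Cenpt. The Pole4 window is counted among those with an E2F word, and gene length below uses its annotated span of 86.4 kb. E2F words were in 9 of 21 replication promoters (42.9%) and 7 of 26 segregation promoters (26.9%), against 2.32% of all 27025 promoters. CHR words were in 2 of 21 replication promoters (9.52%) and 10 of 26 segregation promoters (38.5%), against 19.4% of all. A CHR word together with a CCAAT word was in 8 segregation promoters (30.8%), against 7.66% of all.

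Stretches of 4 promoters are shown as examples of the words, from members that differed between the classes of nuclei described further on. They were chosen with those values known. They are written on the strand of the gene, end before the annotated start of the gene, and have the words searched in capitals. Further E2F words of Cenpl, Ncapd2 and Ncapg, and further CCAAT words of Cenpl and Ncapd2, lie in the window beyond the stretch shown. Pola1 (chrX:93632168-93632313, minus strand) has an E2F and a CCAAT word. Cenpl (chr1:161070585-161070709, plus strand) has a CHR, an E2F and a CCAAT word. Ncapd2 (chr6:125191702-125191783, minus strand) and Ncapg (chr5:45669729-45669918, plus strand) have CCAAT in reverse (ATTGG) ahead of a CHR word.
Pola1: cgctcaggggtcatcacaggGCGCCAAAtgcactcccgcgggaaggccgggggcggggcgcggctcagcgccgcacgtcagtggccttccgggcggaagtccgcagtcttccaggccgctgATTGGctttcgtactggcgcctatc
Cenpl: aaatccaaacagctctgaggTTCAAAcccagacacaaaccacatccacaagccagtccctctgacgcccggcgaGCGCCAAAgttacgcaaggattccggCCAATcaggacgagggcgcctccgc
Ncapd2: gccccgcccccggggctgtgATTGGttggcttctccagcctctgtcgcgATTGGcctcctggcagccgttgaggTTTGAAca
Ncapg: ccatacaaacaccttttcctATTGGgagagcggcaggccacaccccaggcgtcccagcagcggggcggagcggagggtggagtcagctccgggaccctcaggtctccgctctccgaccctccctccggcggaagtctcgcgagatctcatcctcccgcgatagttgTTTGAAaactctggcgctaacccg
A match is a description of letters in this window and was not tested as a binding site.

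The members varied across the deposited clusters in graded steps, and none was confined to a cluster. Levels were summed per cluster as CPM and ranked over the 13 clusters with at least 200 nuclei, with no test, since the clusters were made from the same nuclei. From the fixed markers, cluster 6 was goblet-like (7 of 8 markers, beside 3 of 6 Paneth markers), cluster 8 enterocyte-like (7 of 10), clusters 9 and 10 enteroendocrine-like (11 and 6 of 11) and cluster 11 tuft-like (6 of 8). Cluster 7 passed 7 of 8 markers of the fetal list, which is no cell type. Cluster 1 passed 6 of 10 enterocyte, 3 of 6 Paneth and 3 of 8 goblet markers, cluster 3 was led by histone genes such as Hist1h2ac, and clusters 0, 2, 4, 5 and 12 passed no list, so these and cluster 7 are given by number. The ratio of a member's highest to its lowest cluster had a median of 2.09 and lay between 1.51 and 2.99 for all members but Gins4, whose lowest level rests on 3 UMIs in cluster 12.

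By summed counts, cluster 0 was the top cluster of 17 of 52 members (32.7%), against 15.8% of all genes with at least 1000 UMIs, and cluster 3 that of 9. This order turned with the measure. By the mean of the samples' CPM, cluster 3 was the top of 17 members and cluster 0 of 9, and in SCM samples alone of 15 and 5. In QCM samples alone it went the other way, with cluster 3 the top of 1 member and cluster 0 of 19. Over all 15 clusters, cluster 0 was the top of 11 members, and clusters 13 and 14, each under 200 nuclei, of 10 each. Genes of the same pathways outside the rule had their top level in cluster 0, by summed counts, in 22 of 41 cases for replication and 21 of 51 for segregation. In cluster 3, 8 segregation members (Cenpa, Cenpf, Cenph, Cenpi, Cenpl, Cenpn, Ncapg and Ncaph) and 1 replication member had their highest level, as did 1.71% of all genes with at least 1000 UMIs. By the mean of the samples' CPM these counts were 15 and 2, with 3 segregation members highest in cluster 0. In QCM samples alone 1 segregation and 0 replication members were highest in cluster 3 (1.39% of all genes), and in SCM samples alone 13 and 2 were (3.9% of all genes). The difference between the axes was not tested. The enterocyte-like cluster 8 held the lowest level of 32 of 52 members (61.5%), against 11.6% of all genes with at least 1000 UMIs.

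Pola1, the catalytic subunit of polymerase alpha (chrX:93304767-93632155), shows the gradient for replication. Its level was 348 CPM in cluster 0, 315 in cluster 2, 279 in cluster 3, 161 in cluster 1 and 137 in cluster 8. In cluster 0 the samples gave 235, 377 and 314 CPM in QCM and 332, 394 and 343 in SCM. In cluster 1 they gave 104, 284 and 147 CPM in QCM and 173, 311 and 228 in SCM, so every sample was lower in cluster 1 than in cluster 0. Cenpe, the kinetochore motor that carries chromosomes to the spindle equator (chr3:135212537-135273611), had 174 CPM in cluster 0 and 171 CPM in cluster 3. Its level was 97.3 CPM in cluster 1 and 68.4 CPM in cluster 8. Cenpa, the histone H3 variant that marks the centromere (chr5:30666777-30674830), had 122 CPM in cluster 3, 116 in cluster 0 and 60.3 in cluster 7.

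Not all members followed this order. Cluster 0 was above cluster 1 in all 6 samples for 24 members, and in none of the 6 for 7 members. The same counts were not made over all genes. Cenpa, Cenph, Cenpi and Cenpu failed in SCM replicate 1 alone, where Cenph and Cenpu had 8.98 CPM in cluster 0. Cenpq and Gins3 each failed in a different sample alone. Cenpx, a histone-fold partner of Cenps, had 86.9 CPM in cluster 1 and 37.1 in cluster 0. Against all other nuclei, cluster 0 was highest for Ncapd3 (1.63-fold), Cenpp (1.56-fold), Pola1 (1.55-fold), Gins3 (1.501-fold), Prim2 (1.46-fold), Orc1 (1.42-fold) and Rfc1 (1.12-fold), each the top of its family. The lowest of each family were Cenpx (0.663-fold), Gins4 (0.707-fold), Pold4 (0.749-fold), Rfc4 (0.844-fold), Ncaph2 (1.06-fold), Orc6 (1.12-fold) and Prim1 (1.28-fold).

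**Figure D1:**
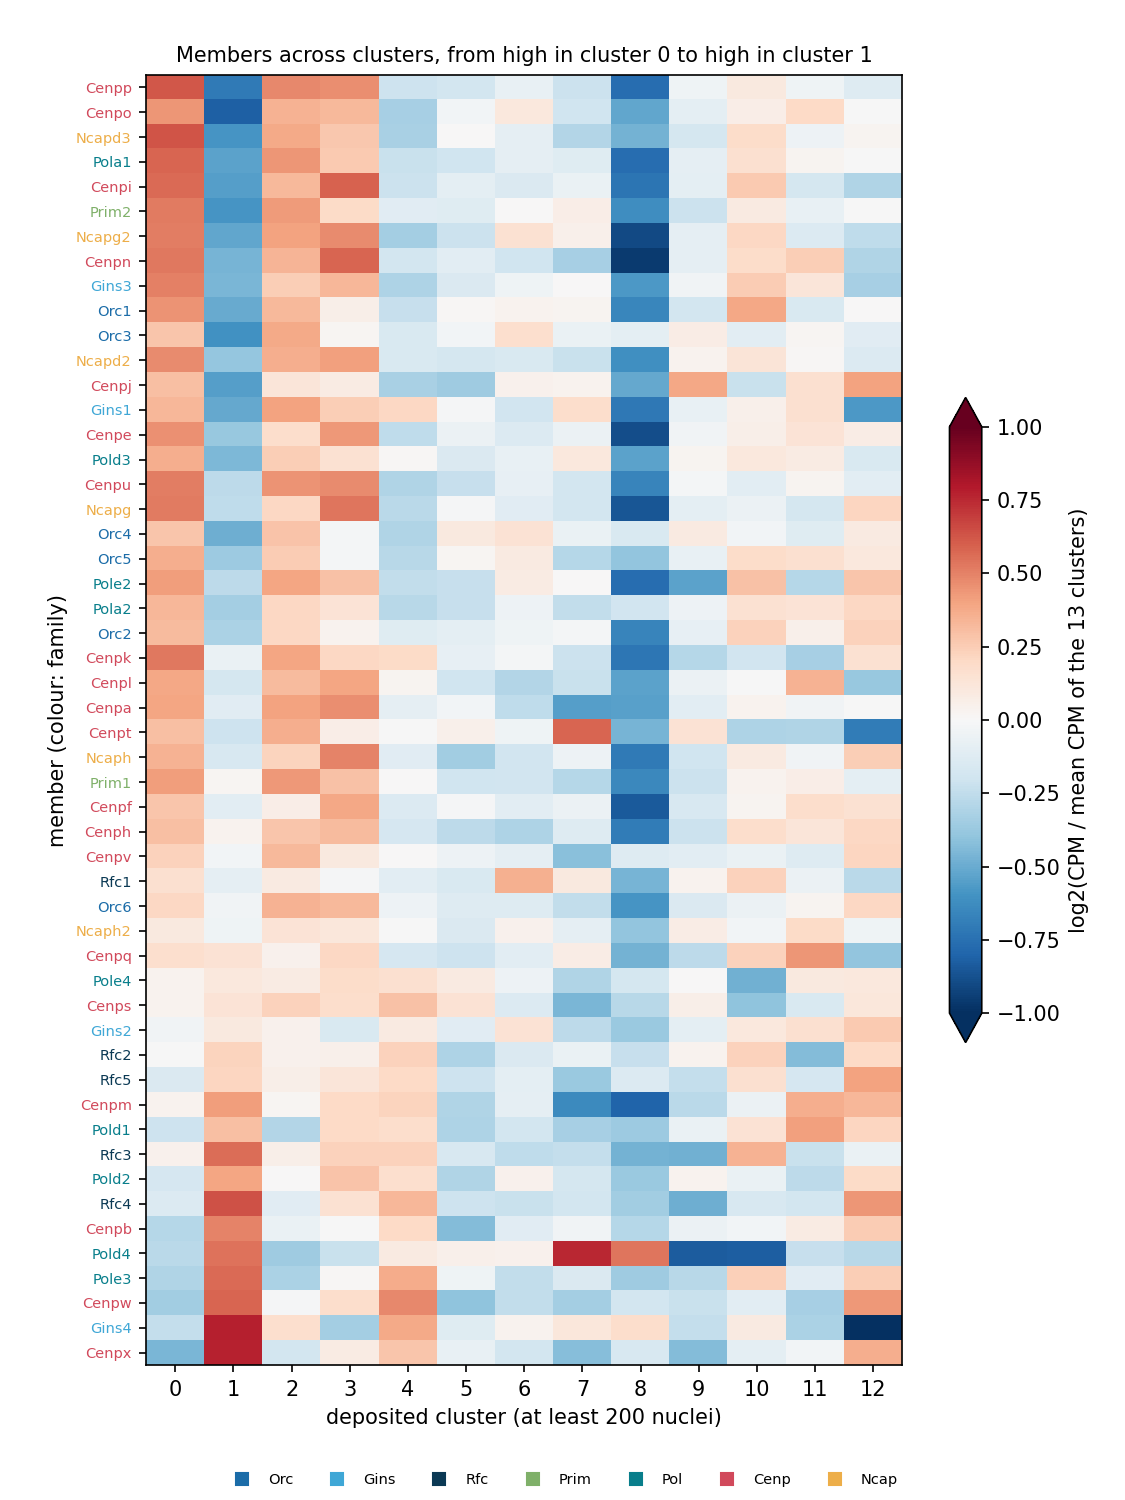
Level of each of the 52 members (rows, name coloured by family) in the 13 clusters with at least 200 nuclei (columns), as a colour scale around each member's own mean. Members at the top were higher in cluster 0 and those at the bottom, such as Cenpx, higher in cluster 1, and cluster 8 held the lowest level of 32 members.

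The order across clusters moved with the length of the gene. For the 10 members with a span under 10 kb the median log2 ratio of cluster 1 to cluster 0 was 0.67, beside 0.40 for all 2601 genes of that span. The 15 members of 10 to 20 kb had a median of -0.02 (all genes -0.15) and the 12 members of 20 to 40 kb one of -0.78 (all genes -0.46). The 15 members of 40 kb or more had -0.85, beside -0.79 for 3822 genes. Pold4, Pole3 and Cenpx are among the shortest members, and Pola1 (327 kb), Prim2 (216 kb) and Cenpp (189 kb) the longest. The part of gene length in the ranking of clusters was not tested.

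To place the members in the cell cycle without using them, nuclei were classed by other genes. Each nucleus was thinned to 1000 UMIs, which left out 3179 shallower nuclei and kept 34975. Replication-class nuclei had at least 5 UMIs from 41 replication genes outside the rule, and mitosis-class nuclei at least 5 from 42 mitosis genes. This gave 2370 replication-class, 5444 mitosis-class and 26555 other nuclei, and 606 nuclei past both limits were left out. The classes are ranges of a score, with 2497 nuclei at 4 and 1409 at 5 replication UMIs, and 2990 and 2096 for mitosis. They were set after the data had been seen. Summed counts per sample and class were compared within samples by edgeR, over 10024 genes with the class-setting genes removed, and CPM here is taken over the UMIs outside those genes. The standard errors of these class tests borrow spread across genes and can be narrower than a member's own spread between samples.

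The classes were checked on genes that neither set them nor belong to the rule. The largest log2 differences from other nuclei included Mybl2 (2.03), Kntc1, a kinetochore gene (1.91), and Brca1, a DNA repair gene (1.88), in the replication class. In the mitosis class they included Pif1, a DNA helicase (2.47), the mitotic kinesin Kif14 (2.13) and Prr11 (2.12). Median UMIs before thinning were 2228, 2670 and 2167 in replication-class, mitosis-class and other nuclei, and ribosomal protein genes took 6.95%, 6.39% and 9.06% of UMIs. The part of these differences in the results was not tested. By cluster, replication-scored nuclei made up 11.7% of cluster 0, 10.3% of cluster 2, 9.81% of cluster 3 and 2.20% of cluster 8. Mitosis-scored nuclei made up 23.8%, 20.2%, 26.1% and 5.93% of these. Other marked clusters lay above cluster 8 in both shares. Replication-scored and mitosis-scored nuclei made up 8.59% and 14.1% of the tuft-like cluster 11 and 5.34% and 10.1% of the goblet-like cluster 6. They made up 4.4% and 8.52% of the enteroendocrine-like cluster 9 and 7.13% and 15.4% of cluster 10.

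Of the 52 members, 31 were higher in the replication class and 24 in the mitosis class. In replication-class nuclei 15 of 26 replication members were higher at an adjusted p under 0.05 and none lower, where 8.14% of all genes were higher and 10.7% lower. In mitosis-class nuclei 3 of them were higher and 2 lower, where 11.4% of all genes were higher and 18.7% lower. Of the 26 segregation members 16 were higher and 2 lower in the replication class, and 21 were higher and none lower in the mitosis class. The median log2 differences were 0.72 and 0.05 for replication members and 0.72 and 0.84 for segregation members, against -0.06 and -0.05 for all genes.

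All 4 subunits of the primer-making complex were higher in the replication class. Pola1 had 128, 267 and 188 CPM in other nuclei of QCM replicates 1 to 3 and 218, 290 and 227 in those of SCM. In replication-class nuclei it had 233, 757 and 670 CPM in QCM and 1361, 933 and 739 in SCM, and in mitosis-class nuclei 135, 268 and 256 in QCM and 243, 294 and 270 in SCM. Each sample's replication class stood above both of its other classes. The log2 difference from other nuclei was 1.57 ± 0.06 (SE; edgeR adjusted p = 1.25e-85), whereas that of the mitosis class was 0.07 ± 0.06. SCM replicate 1 added 20 replication-class and 29 mitosis-class nuclei, where 1 UMI equals 50.4 and 34.8 CPM, so its class levels carry the widest counting error.

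Prim1, the primase catalytic subunit, had 53.7, 47.6 and 27.9 CPM in other nuclei of QCM and 40.6, 55.6 and 38.4 in those of SCM. Replication-class nuclei gave 41.6, 117 and 101 CPM in QCM and 151, 132 and 127 in SCM, above other nuclei in 5 of 6 samples. Its log2 difference was 1.37 ± 0.12, beside 1.40 ± 0.09 for Prim2 and 1.27 ± 0.13 for Pola2, the regulatory subunits of primase and polymerase alpha. None of these members was called in the mitosis class.

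Origin and helicase subunits ranged from no call to large differences. Orc1, an ATPase subunit of the origin complex (chr4:108579423-108614833), had 15.03, 30.2 and 22.2 CPM in other nuclei of QCM and 40.6, 40.5 and 32.9 in those of SCM. In the replication class it had 33.3, 79.4 and 67.2 CPM in QCM and 0, 108 and 97.1 in SCM, where the 0 of SCM replicate 1 allows up to 151 CPM. The log2 difference was 1.38 ± 0.14. Orc6 (0.83) and Orc2 (0.53) were also higher, whereas Orc3 (0.00), Orc4 (0.03) and Orc5 (0.13) were not called. Of the GINS subunits, Gins1 (1.61 ± 0.19), Gins3 (1.51) and Gins2 (0.76 ± 0.20) were higher. Gins4 (0.56 ± 0.27) was not called, but lay within error of Gins2.

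Among clamp loader subunits, Rfc3 (0.94), Rfc2 (0.87) and the large subunit Rfc1 (0.72 ± 0.10) were higher in the replication class, and Rfc4 (0.42 ± 0.17) and Rfc5 (0.36 ± 0.22) did not pass. Differences between subunits of a complex were not tested. Rfc1 was lower in the mitosis class, at -0.27 ± 0.09. Of polymerases delta and epsilon, Pold3 (0.76) and Pole2 (0.71) were higher, while Pold1 (0.20 ± 0.23), Pold2, Pold4, Pole3 and Pole4 were not called. Set against other nuclei, 13 replication members passed as higher in the replication class and not in the mitosis class, 2 in both (Gins3 and Orc2), 1 in the mitosis class and not in the replication class (Orc3) and 10 in neither.

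Several segregation members were highest in the mitosis class. Cenpa had 92.3, 66.1 and 58.6 CPM in other nuclei of QCM and 66.4, 43.7 and 56.0 in those of SCM. In the mitosis class it had 133, 241 and 236 CPM in QCM and 69.5, 214 and 264 in SCM, above other nuclei in all 6 samples, though by little in SCM replicate 1. Its replication-class levels were 83.3, 37.3 and 51.5 CPM in QCM and 101, 47.9 and 46.7 in SCM. The log2 difference was 1.82 ± 0.07 in the mitosis class and -0.45 ± 0.16 in the replication class (edgeR adjusted p = 3.38e-82 and 0.025). Its ratio of mitosis-class to other nuclei ran from 1.44 to 4.02 within QCM alone, a wider spread than this error.

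Cenpe had 87.4, 112 and 63.8 CPM in other nuclei of QCM and 114, 103 and 84.1 in those of SCM. Mitosis-class nuclei gave 133, 398 and 266 CPM in QCM and 278, 360 and 340 in SCM, and replication-class nuclei 58.3, 126 and 82.9 in QCM and 0, 105 and 87.3 in SCM. The classes of mitosis and other nuclei did not overlap, and the log2 differences were 1.72 ± 0.06 and -0.02 ± 0.12. Cenpf, a large coiled-coil protein of the outer kinetochore (chr1:189640606-189688086), went the same way, at 1.38 ± 0.07 and -0.61 ± 0.13. Cenpl, a subunit of the inner kinetochore network, had 1.59 in the mitosis class and 0.23 ± 0.24, not called, in the replication class.

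Other segregation members were higher in the replication class than in the mitosis class. Cenph, an inner kinetochore subunit (chr13:100759674-100775899), had 36.8, 29.2 and 28.5 CPM in other nuclei of QCM and 40.6, 29.8 and 34.5 in those of SCM. In replication-class nuclei it had 33.3, 115 and 91.8 CPM in QCM and 202, 92.7 and 103 in SCM, and in mitosis-class nuclei 56.9, 53.4 and 59.4 in QCM and 209, 50.7 and 51.3 in SCM. All samples but QCM replicate 1 were higher in the replication class than in other nuclei. The log2 differences were 1.56 ± 0.13 and 0.69 ± 0.11. Cenpk, its partner, gave 1.47 and 0.70, and Cenps, which pairs with Cenpx, 1.26 and 0.00. Cenpu was higher in both classes, at 1.51 and 1.24, and its difference between them of 0.27 ± 0.17 was not called (edgeR adjusted p = 0.393). Cenpx itself was not called in either class (-0.12 ± 0.15 and -0.12 ± 0.11).

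Condensin subunits were higher in both classes, 6 of 6 in each. Ncapg2 and Ncapd3 of condensin II had 1.43 ± 0.11 and 1.11 ± 0.09 in the replication class and 1.02 and 0.94 in the mitosis class. Ncapd2 and Ncapg of condensin I had 0.51 and 0.86 in the replication class and 1.47 and 1.47 in the mitosis class. In the replication and mitosis classes, Ncaph2 of condensin II had 0.39 and 0.33, and Ncaph of condensin I 0.93 and 1.28. The direct differences between the classes were not called for Ncapd3, Ncaph2 and Ncaph (edgeR adjusted p = 0.321, 0.879 and 0.154). Of 9 cohesin genes and regulators outside the rule, 5 were higher in the replication class and 6 in the mitosis class.

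The difference between the classes was tested directly, replication minus mitosis, where 3.99% of all genes were higher in the replication class and 3.88% in the mitosis class. On that test 13 of 26 replication members were higher in the replication class and 1, Orc3, in the mitosis class. These 13 are not those that passed against other nuclei in the replication class and not in the mitosis class, since Rfc4 (0.69 ± 0.20, edgeR adjusted p = 0.0123) came in and Pole2 (0.47 ± 0.22, edgeR adjusted p = 0.192) fell out. The largest log2 differences were 1.5 ± 0.07 for Pola1, 1.33 ± 0.17 for Orc1 and 1.30 ± 0.22 for Gins1. Of 26 segregation members, 9 were higher in the mitosis class (Cenpa, Cenpf, Cenpe, Cenpl, Ncapd2, Cenpn, Ncapg, Cenpi and Cenpp) and 4 in the replication class (Cenph, Cenpk, Cenps and Ncapg2). The values were -2.27 ± 0.13 for Cenpa, -1.99 ± 0.12 for Cenpf and -1.74 ± 0.10 for Cenpe, against 0.87 ± 0.14 for Cenph and 0.41 ± 0.11 for Ncapg2. With replicates 2 and 3 of each medium alone, the same 13 replication members were higher in the replication class, and 8 of the 9 segregation members remained higher in the mitosis class, with Cenpn lost and Cenpw gained. Without the nuclei whose barcode both replicate 1 samples hold, all of these calls remained. Under some other limits, in nuclei of cluster 0 alone or with a sample left out, the calls of Cenpi, Cenpn, Cenps, Cenpk, Ncapg2, Gins2, Rfc4 and Orc3 were lost, and the other calls held in every alternative run. Cenpp has Ecm2, Aspn, Omd and Ogn within its span on the opposite strand.

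**Figure D2:**
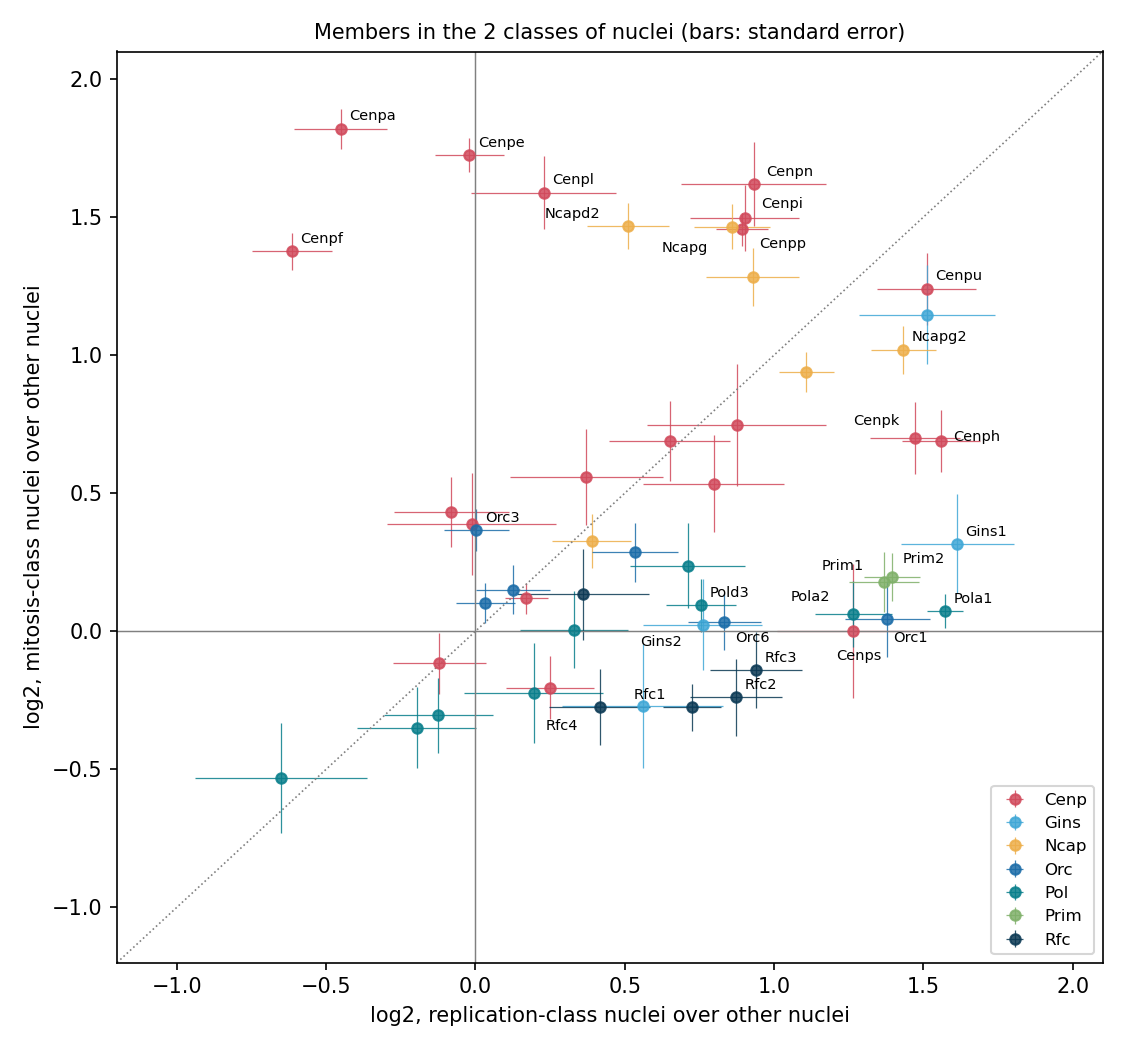
Log2 difference from other nuclei in replication-class nuclei (x axis) and mitosis-class nuclei (y axis) for the 52 members, coloured by family, with standard errors as bars. Pola1, Prim1, Prim2 and Orc1 lie far right near 0 on the y axis, Cenpa, Cenpe and Cenpf lie high at or left of 0, and Ncapg2 and Cenpu are high on both.

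**Figure D3:**
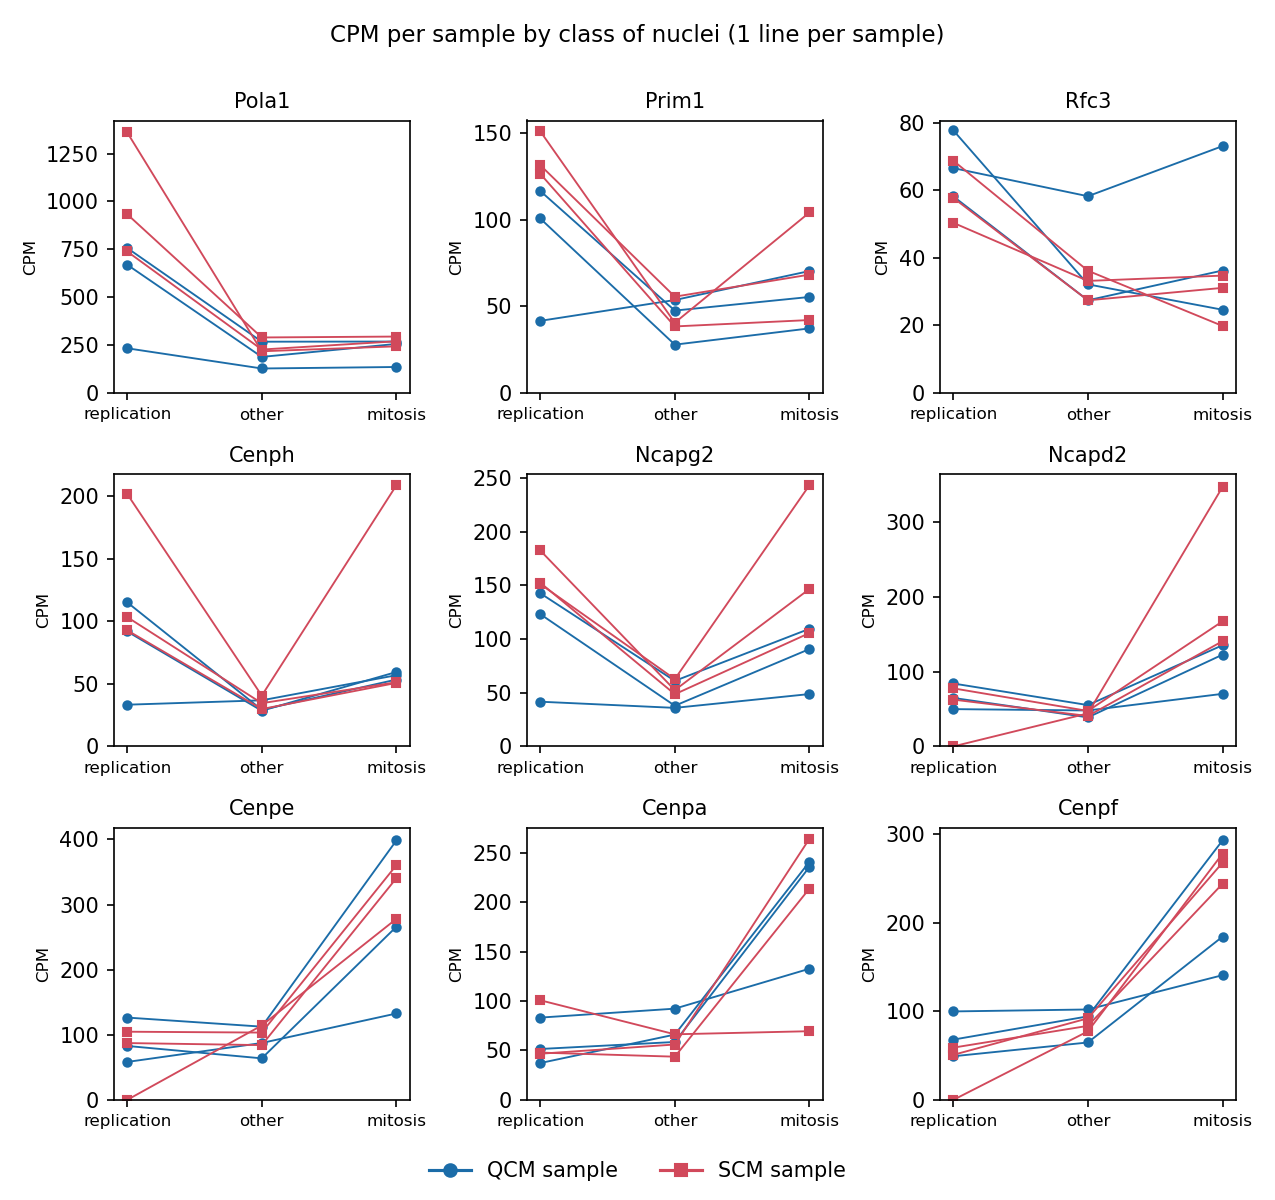
CPM of single members (panels) in replication-class, other and mitosis-class nuclei, with 1 line per sample and the medium by colour. Pola1 is highest in the replication class and Cenpe in the mitosis class in all 6 samples, and Cenpa in the mitosis class in all but SCM replicate 1.

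The words in the promoters were set beside these classes as a description. Over all genes 8.14% were higher in the replication class and 11.4% in the mitosis class, and these shares were not split by word. The genes that set the classes are themselves cell cycle genes, and whether they hold the same words was not counted. Of the 12 members with a CHR word, 11 were higher in the mitosis class (median log2 1.26), against 13 of 35 without one (median 0.13). Of these 12, 10 are segregation members, and among segregation members 10 of 10 with a CHR word and 11 of 16 without one were higher in the mitosis class (medians 1.42 and 0.69). Of the 16 members with an E2F word, 11 were higher in the replication class (median 0.81), against 16 of 31 without one (median 0.42). The CCAAT word gave a like contrast there, at 17 of 26 with it (median 0.82) and 10 of 21 without it (median 0.39). In the mitosis class 16 of 26 members with it (median 0.61) and 8 of 21 without it (median 0.15) were higher. Among segregation members 14 of 15 with it (median 1.38) and 7 of 11 without it (median 0.56) were, a contrast like that of the CHR word. The words did not follow the direct test throughout. Of the 9 segregation members higher in the mitosis class than in the replication class, 6 hold a CHR word (Cenpa, Cenpf, Cenpl, Ncapd2, Cenpn and Ncapg), and Cenpe, Cenpi and Cenpp hold none. Ncapg2, higher in the replication class, holds a CHR word as well, and Cenpl, Ncapd2 and Ncapg hold E2F words, as Pola1 does.

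SCM and QCM were then compared over all nuclei, where fewer cells of a kind and less RNA per cell cannot be told apart. No member differed between media by edgeR with Benjamini-Hochberg adjustment over 19046 genes (smallest adjusted p = 0.927), and 0.0% of all genes were called. At an unadjusted p under 0.05 there were 2 of 52 members, Gins2 and Cenpx, beside 4.55% of all genes. DESeq2 called 21 genes (0.11%) and 0 members. In SCM 22 of 52 members were higher, with a median log2 ratio of -0.02, beside -0.01 for all genes. Scaled by library size alone, the medians were 0.12 for replication and 0.15 for segregation members, and that of all genes moved to 0.14, so no direction is read from them. Without the nuclei whose barcode both replicate 1 samples hold, and with replicates 2 and 3 alone, 0 members were called. The members' CPM summed to 1292 ± 154 in QCM and 1435 ± 71.3 in SCM (SD, n = 3) for replication, and to 1565 ± 287 and 1682 ± 82.1 for segregation.

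Gins2, a subunit of the replicative helicase (chr8:120578633-120589304), had 23.8, 23.9 and 21.3 CPM in QCM and 17.4, 15.6 and 16.6 in SCM. All SCM samples lay below all QCM samples, which held for 2.09% of all genes. The log2 ratio was -0.65 ± 0.19 (95% interval -1.03 to -0.27, edgeR adjusted p = 0.927). Intervals here are normal approximations and run narrow for 3 samples per medium. Cenpb, a protein that binds centromeric DNA, was the other member without overlap, with 74.1, 42.9 and 38.9 CPM in QCM and 38.1, 38.3 and 37.3 in SCM. The gap there was small beside the spread within QCM, and the log2 ratio was -0.67 ± 0.32. No member had all SCM samples above all QCM samples, as 4.99% of all genes did.

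Cenpx (chr11:120710942-120713738) had 86.5, 40.2 and 42.8 CPM in QCM and 29.5, 20.7 and 42.5 in SCM, with a log2 ratio of -1.08 ± 0.44. Pole3, a histone-fold subunit of polymerase epsilon, had 43.2, 24.2 and 32.0 CPM in QCM and 20.1, 16.9 and 28.2 in SCM, with -0.80 ± 0.34. For both, the highest SCM sample lay within the QCM range, and with 1 sample left out the ratios ran from -1.47 to -0.45 and from -1.10 to -0.40, smallest in size without QCM replicate 1 and largest without SCM replicate 3. The positive log2 ratios with the smallest p were 0.32 ± 0.20 for Prim2, 0.35 ± 0.24 for Cenpo and 0.27 ± 0.17 for Pold3. These were 0.23, 0.21 and 0.18 without QCM replicate 1 and 0.51, 0.59 and 0.37 without QCM replicate 2.

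The members that differed most between the classes were not called between media. Pola1 had 166, 322 and 231 CPM in QCM and 310, 322 and 277 in SCM, a log2 ratio of 0.21 ± 0.21 with a 95% interval of -0.20 to 0.61. Cenpe had 93.4, 182 and 95.5 CPM in QCM and 114, 176 and 143 in SCM, at 0.10 ± 0.27 (-0.43 to 0.62). Cenpa had 98.2, 110 and 85.9 CPM in QCM and 88.7, 87.6 and 97.6 in SCM, at -0.26 ± 0.18 (-0.62 to 0.09). With 1 sample left out the ratio of Pola1 ran from 0.09 (QCM replicate 1 dropped) to 0.39 (QCM replicate 2 dropped). That of Cenpa ran from -0.39 (QCM replicate 3 dropped) to -0.13 (QCM replicate 1 dropped), and that of Cenpe from -0.08 (QCM replicate 3 dropped) to 0.38 (QCM replicate 2 dropped). All SCM values but 1 of Pola1 lay within the QCM range, and the intervals leave room for changes of either sign. The other members fixed by role ran from -0.55 (Rfc3) to 0.25 (Ncapg2), though Rfc3 was at -0.02 without QCM replicate 1, with Orc6 at -0.23, Prim1 at -0.03, Pole2 at 0.01, Rfc1 at 0.04, Ncapd3 at 0.10, Cenpp at 0.20 and Orc1 at 0.22. Several of these moved with a sample left out. Orc6 ran from -0.41 to -0.03, the latter without QCM replicate 1. Orc1 was at 0.10 when SCM replicate 3 was dropped and at 0.41 when QCM replicate 2 was. Ncapg2 and Cenpp were lowest without QCM replicate 3, at 0.13 and 0.08, and highest without QCM replicate 2, at 0.42 and 0.45.

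Gene length moved with the media as well. Of the 10 members under 10 kb, 0 were higher in SCM (median log2 ratio -0.60), against 498 of 2601 genes of that span (median -0.39). Of the 15 members of 10 to 20 kb 1 was higher in SCM, of the 12 of 20 to 40 kb 9, and of the 15 of 40 kb or more 12, with medians of -0.22, 0.04 and 0.10. Of all genes in these classes 577 of 2087, 1243 of 2444 and 3059 of 3822 were higher in SCM. Their medians were -0.14, 0.00 and 0.15. Ribosomal protein genes, whose transcripts are short, took the shares of UMIs given above, and their part in the members' ratios was not tested.

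**Figure D4:**
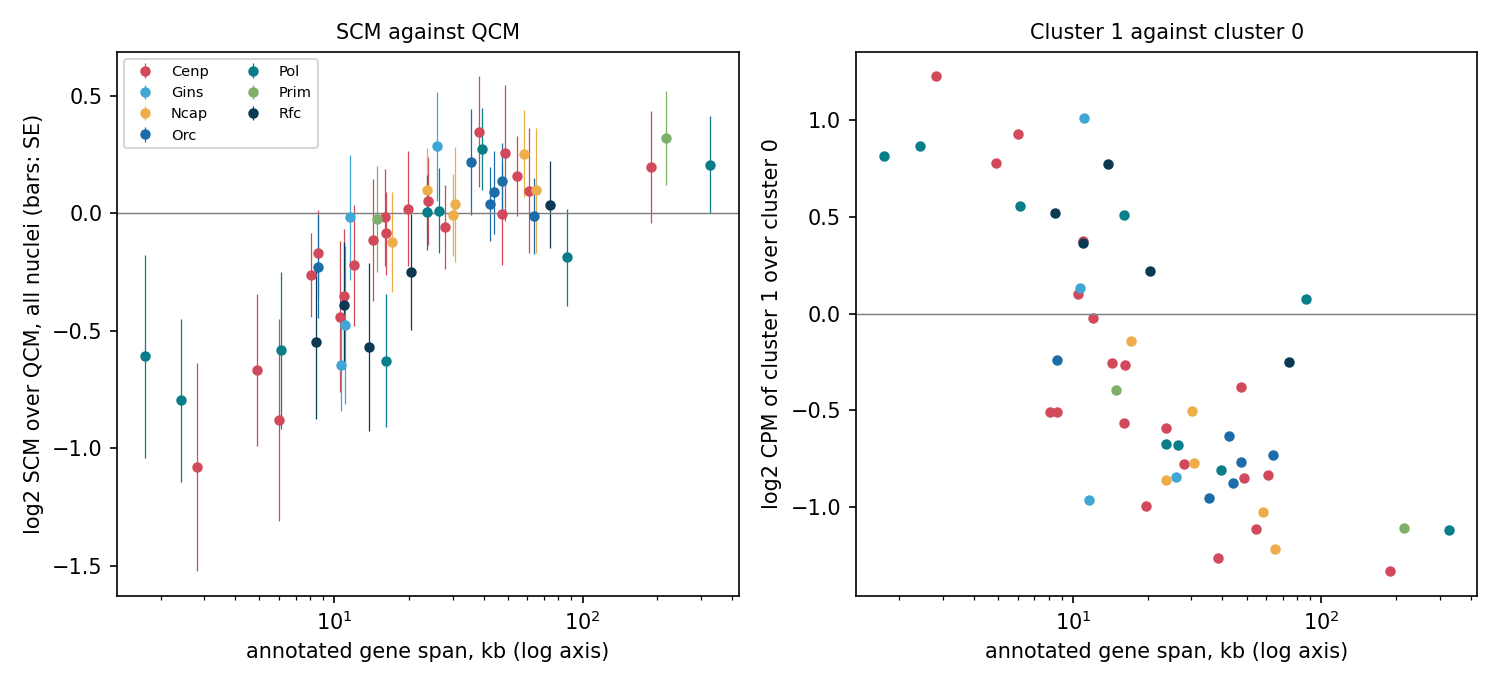
Left, log2 ratio of SCM to QCM over all nuclei with its standard error, and right, log2 ratio of cluster 1 to cluster 0, for each member against annotated gene span in kb (log axis). The 10 members under 10 kb all lie below 0 on the left, with a median of -0.60, and have a median of 0.67 on the right.

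Genes of the same pathways outside the rule gave no call either, 0 of 41 for replication and 0 of 51 for segregation by edgeR, with 0 and 3 at an unadjusted p under 0.05. The smallest p belonged to Spc24 of the Ndc80 kinetochore complex (-0.78), Cdc20, the activator of the anaphase-promoting complex (-0.75), and Birc5 of the chromosomal passenger complex (-0.80). Rpa3, a single-strand binding subunit, had -1.01, Dut, which clears dUTP, -0.70, and the checkpoint gene Bub3 -0.47. These were picked by p. The whole lists had medians of -0.07 for replication (14 of 41 higher in SCM) and -0.003 for segregation (24 of 51 higher).

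Within clusters no member was called in 570 tests over 13 clusters, where 0.0% of all tests were called. At an unadjusted p under 0.05 there were 29 (5.09%), beside 5.76% of all tests. The smallest adjusted p was 0.339, for Cenpw in cluster 7 (log2 ratio -1.31). Without the filter on low counts 3135 of 318724 tests (0.984%) were called, of which 2 were of members, Cenpx in cluster 2 (-0.99, edgeR adjusted p = 0.0114) and Cenpw in cluster 7 (-1.24, edgeR adjusted p = 0.0292).

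The shares of nuclei past the class limits overlapped between media. Replication-scored nuclei made up 3.88%, 11.02% and 6.56% in QCM (7.15 ± 3.61, SD, n = 3) and 7.10%, 8.75% and 9.89% in SCM (8.58 ± 1.40); the exact permutation test, two-sided, gave p = 0.6. Mitosis-scored nuclei made up 10.5%, 22.5% and 13.2% in QCM (15.4 ± 6.28) and 9.88%, 20.8% and 17.9% in SCM (16.2 ± 5.66); the exact permutation test gave p = 1. Such a test of 3 against 3 cannot go below 0.1. All SCM samples lay within the QCM range for replication, and 2 of 3 did for mitosis.

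**Figure D5:**
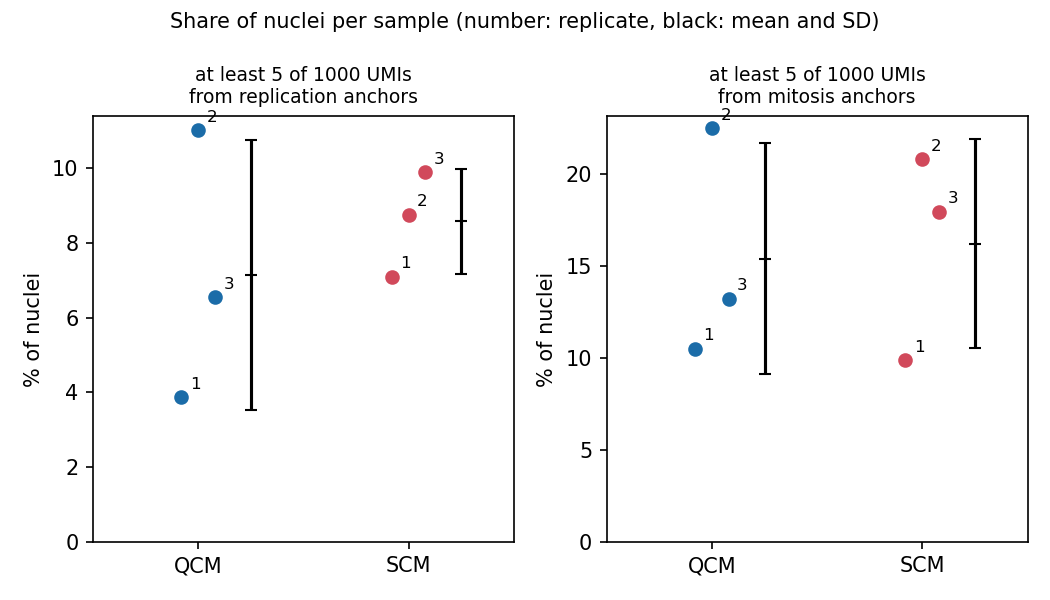
Percent of thinned nuclei per sample with at least 5 of 1000 UMIs from the replication genes (left) and from the mitosis genes (right) outside the rule, by medium, with the replicate number beside each point and the mean and SD in black. QCM spans 3.88% to 11.02% and SCM 7.10% to 9.89% on the left, and the groups overlap in both panels.

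A share resting on members gave the same picture. At 1000 UMIs per nucleus, 17.9%, 24.0% and 14.2% of QCM nuclei and 17.6%, 21.7% and 18.4% of SCM nuclei had a UMI of Cenpe or Cenpf, a difference of 0.563 percentage points (exact permutation p = 0.9, n = 3). The enterocyte-like cluster 8 gave 9.74%, the enteroendocrine-like clusters 9 and 10 13.5% and 19.5%, and the tuft-like cluster 11 20.9%. Clusters 0 and 3 gave 22.3% and 24.2%. Median UMIs per nucleus were 2366.5 in cluster 8 and 2111 in cluster 0. Cluster 8 gave the lowest share of all 15 clusters. Since clusters 9, 10 and 11, marked by other differentiated cells, lay above it, no share is read as background here. Without thinning the shares were 75.2%, 43.6% and 22.6% in QCM and 40.7%, 43.6% and 33.1% in SCM, in the order of depth within QCM.

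The class differences themselves were then compared between media. No member passed for either class by medium, where 0.00998% of 10024 genes did in each. At an unadjusted p under 0.05 the mitosis-class difference gave 4 of 26 segregation members, all larger in SCM (Cenpa, Ncapd2, Ncapg2 and Ncaph), and 0 of 26 replication members, beside 3.05% of all genes. The replication-class difference gave 1 of 52 members, Cenpp (0.33 ± 0.16), beside 3.58% of all genes. Cenpa came nearest to a call, with a mitosis-class difference larger in SCM by 0.58 ± 0.13 on the log2 scale (edgeR adjusted p = 0.0593). Its ratio of mitosis-class to other nuclei was 1.44, 3.65 and 4.02 in QCM and 1.05, 4.89 and 4.71 in SCM. The SCM samples thus lay on both sides of those of QCM (exact permutation p = 0.6, n = 3). The ratio of 1.05 rests on 2 mitosis-class UMIs in SCM replicate 1, and the other SCM ratios lay above all those of QCM. For Ncapd2 the interaction was 0.59 ± 0.18 (edgeR adjusted p = 1.00). Its ratios were 1.46, 2.45 and 3.16 in QCM and 7.85, 3.53 and 3.46 in SCM, without overlap (exact permutation p = 0.1, n = 3), and the highest rests on 10 mitosis-class UMIs in SCM replicate 1. All SCM ratios lay above those of QCM for 2 of 51 members (3.92%), Ncapd2 and Ncaph, and for 2.66% of all genes. All lay below for 2 members, both of replication, and for 6.02% of all genes.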

How the data were processed

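Raw UMI counts per gene and nucleus, with the authors' cluster of each nucleus, were used as deposited. Per the labels and the study's methods, nuclei from frozen organoids were profiled with a 10x 3′ kit and the authors counted reads with Cell Ranger (2.1.1 in the submitters' processing notes) on mm10, then removed nuclei whose mitochondrial share lay far above, or whose reads or features lay far below, those of the rest, and clustered them after Harmony integration. Doublets were not called here. Sums of counts over all nuclei of a sample, or over its nuclei in a cluster where there were at least 10, were tested with edgeR 4.0.16 (quasi-likelihood, TMM, filterByExpr, Benjamini-Hochberg over all genes, threshold 0.05). Intervals are normal approximations and narrower than the edgeR test implies. That of Pole3 (-1.47 to -0.12) excludes 0, although its unadjusted edgeR p was 0.0502. DESeq2 1.42.0, other scaling, no filter, a replicate block, samples left out and other nuclei were alternatives. Named members were those fixed by role, plus the 3 with the smallest p in each direction and the top and bottom of each family in cluster 0. Promoter sequences are RefSeq's. Scripts were tested on simulated data. The members and lists were chosen with earlier results of these data known. Limits for a count of 0 use 3 counts and cover counting error only.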

Additional observations from a re-analysis of the deposited data

How the results depend on the processing

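No member was called between media over all nuclei under any alternative. Within clusters the count became 2 with no filter on low counts. With library size alone, medians of the log2 ratio became 0.1184 for replication and 0.1498 for segregation members, and the same mix of clusters in every sample gave 0.09936 for segregation. Leaving out 1 sample gave -0.1745 to 0.00014 for replication and -0.1615 to 0.04142 for segregation, the lowest without QCM replicate 3. In SCM samples alone 4 replication members were highest in cluster 0. For segregation members that count was 5 over all 15 clusters, 3 by the mean of the samples' CPM, 1 in SCM alone and 12 in QCM alone. The count of segregation members highest in cluster 3 was 15 by that mean, 1 in QCM alone and 13 in SCM alone. Without thinning the share with a UMI of Cenpe or Cenpf differed by -7.991 percentage points. At 4 class-setting UMIs 5 replication members were higher in the mitosis class. The signs of ratios near 0 turned. Rfc1 had -0.09361 without the 5% of nuclei with the most UMIs. Prim1 had 0.1469 and Cenpf 0.1506 by library size alone, and 0.117 and 0.1403 with replicates 2 and 3 alone. Pole2 had -0.001182 by DESeq2, and without the shared barcodes Pole2 had -0.02558 and Cenpf 0.06209. Ranges with 1 sample left out were -0.1239 to 0.178 for Rfc1, -0.2453 to 0.1647 for Prim1, -0.06653 to 0.1246 for Pole2, -0.07649 to 0.3785 for Cenpe, -0.1963 to 0.1341 for Cenpf and -0.04791 to 0.431 for Ncapd3. The cause was not tested. With the replicate block 0 members were called, Prim1 had 0.01018 and Cenpf 0.01639. Deviations of same-numbered samples correlated at 0.36, 0.46 and -0.09, and replicate 3 of neither medium correlated best with its own number, so the numbers were not taken to pair the samples. Of the class differences called, 292 values kept their call over the alternatives and 30 lost it. The share with a UMI of Mcm2 to Mcm7 was not run. SCM replicate 1, with 430 nuclei, limits every level by class.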

Other observations

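The long span of Cenpp (chr13:49464023-49652785, minus strand) contains the extracellular matrix genes Ecm2, Aspn, Omd and Ogn on the opposite strand, and Tes3-ps, which was counted at 1.38 to 2.70 CPM and was too low for the class test. The matrix genes are usually markers of stromal cells, but they were counted in every sample, at 33.3 to 53.5 CPM for Ecm2, 27.7 to 51.3 for Aspn, 17.0 to 32.4 for Omd and 22.7 to 47.4 for Ogn. All 6 fibroblast markers together reached at most 2.71 CPM in any sample. In mitosis-class nuclei their log2 differences from other nuclei were 1.71 ± 0.10, 1.90 ± 0.10, 1.85 ± 0.13 and 1.91 ± 0.12 by edgeR, and Cenpp had 1.46 ± 0.06. In replication-class nuclei they had 0.96, 1.12, 1.16 and 1.38, and Cenpp 0.89. The choice of this set followed a look at its values. Whether their counts are reads of the Cenpp transcript was not tested.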
